A study of Mus musculus with 16 samples.

Results

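The transcripts described here are the antisense noncoding RNAs of the mouse hippocampus, measured by RNA sequencing in 16 male wild type C57BL/6 mice aged 3 months. They are the rows that the deposited transcript table types as antisense, without the small nucleolar RNA host genes and without 9 named genes (Gm16364, 1700109K24Rik, 1700065J18Rik, C130026L21Rik, Gm37571, Gm32391, Gm9017, Gm14372 and a gene with a clone name). This left 1667 transcripts of 1353 genes, out of 1675 antisense rows and 80137 rows in all. Of these genes 870 have provisional names that start with Gm, and 170 have names that end in os, for opposite strand, with or without a number.

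The mice came from a learned helplessness experiment with 4 groups of 4 mice. Homecage mice (HC) stayed in their cages and were not handled. Control mice (Ctrl) sat in the shuttle box without inescapable shock and then went through the test of 30 trials with escapable foot shock of 0.4 mA. The remaining mice received 180 inescapable shocks of 0.4 mA on the day before the same test, and by their escape failures and latencies were assigned to LH (learned helpless) or to NLH, the mice that did not become helpless. All mice were killed 3 h after the test, and both hippocampi of a mouse were pooled into 1 library. No mouse carried a transgene or mutation. All 10 hippocampal markers were at 0.1 FPKM or more in 15 mice and 9 of 10 in LH4, where Wfs1, a marker of CA1 neurons, was at 0.00225 FPKM, and their summed level lay between 101 and 158 FPKM.

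Antisense transcripts are copied from the strand opposite to another gene and overlap it or lie close to it. Some act on the gene they overlap, as Airn does in imprinting of Igf2r, and others act elsewhere or have no known role. In the forebrain the best known examples lie beside homeobox genes, such as Dlx6os1 and Dlx1as at the Dlx genes that specify GABA neurons and Emx2os at Emx2, a gene of cortical and hippocampal patterning. A change in bulk tissue cannot tell fewer cells of a type from less RNA per cell.

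The libraries of LH mice 3 and 4 (LH3, LH4) stood apart. FPKM counts fragments relative to transcript length and library size. LH3 had 639 antisense transcripts at 0.1 FPKM or more and LH4 had 491, against 776 to 881 in the other 14 mice. The same holds for all transcripts, with 46727 in LH3, 41280 in LH4 and 50979 to 54616 in the others. From the steps between low values, LH4 had the fewest fragments with an estimated 20170000, followed by LH2 with 23810000 and LH3 with 24730000, and Ctrl2 had the most with 38030000. LH2 was thus sampled no more deeply than LH3 by this estimate. Of 2128 transcripts with a mean of at least 10 FPKM in the other 15 mice, 22 were below 0.001 FPKM in LH4, against 2 to 10 in each other mouse, so a value near 0 may be a failed estimate. The main counts of calls and most named differences and correlations that involve LH mice are therefore given with and without LH3 and LH4, and many other LH values by mouse. The LH1 and LH2 libraries, on which the latter values rest, differed in markers of other tissue. The 6 thalamus markers, each at 0.1 FPKM or more in every mouse, summed to 28.5 FPKM in LH1, with Prkcd at 10.3 FPKM, against 9.10 to 12.3 FPKM in the other LH mice and 8.92 to 13.2 FPKM in HC, Ctrl and NLH. The 8 choroid plexus markers summed to 88.5 FPKM in LH2, 59.7 FPKM in LH1 and 1.67 FPKM in LH4, against 2.69 to 63.5 FPKM in the other groups. The part of these markers in the LH differences was not tested.

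**Figure D1:**
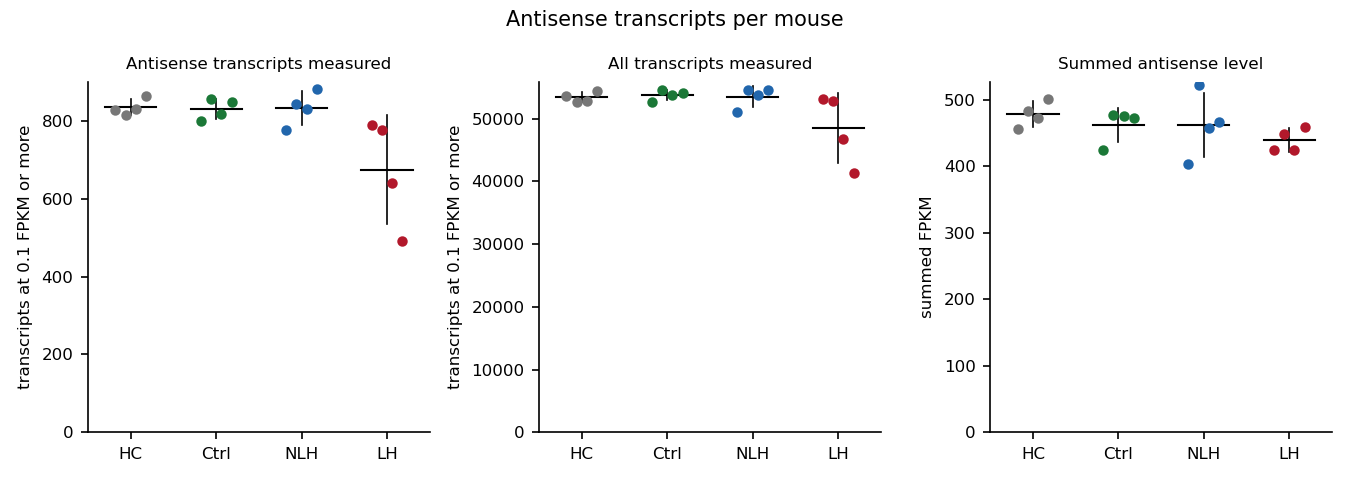
Antisense transcripts at 0.1 FPKM or more, all transcripts at 0.1 FPKM or more and the summed antisense FPKM, each mouse as a point by group (HC, Ctrl, NLH, LH; 4 mice each), with group mean and SD. LH3 (639) and LH4 (491) lie below the other 14 mice (776 to 881) in antisense transcripts, whereas summed antisense FPKM overlaps among the groups.

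Promoter sequences of the antisense genes on which the results turn are printed here because the genes are known mostly by position. They are 300 bases long, 250 before and 50 after a start site, from RefSeq on GRCm38.p6, written 5′ to 3′ on the strand of the antisense gene, with every CG dinucleotide in capitals. The RefSeq table matched 501 of the 1353 genes, with 629 windows. The first pair are the starts of Dlx6os1, the gene with the smallest limma p between LH and NLH among transcripts with a mean of at least 0.5 FPKM, at chr6:6869484-6869783 and chr6:6861634-6861933 on the minus strand.
Dlx6os1, upstream start: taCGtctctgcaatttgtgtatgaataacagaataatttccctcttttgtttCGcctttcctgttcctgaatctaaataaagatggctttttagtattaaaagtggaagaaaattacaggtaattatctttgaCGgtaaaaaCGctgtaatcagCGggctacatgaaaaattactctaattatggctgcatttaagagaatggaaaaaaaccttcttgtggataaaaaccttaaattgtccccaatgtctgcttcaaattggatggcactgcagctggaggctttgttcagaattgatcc
Dlx6os1, downstream start: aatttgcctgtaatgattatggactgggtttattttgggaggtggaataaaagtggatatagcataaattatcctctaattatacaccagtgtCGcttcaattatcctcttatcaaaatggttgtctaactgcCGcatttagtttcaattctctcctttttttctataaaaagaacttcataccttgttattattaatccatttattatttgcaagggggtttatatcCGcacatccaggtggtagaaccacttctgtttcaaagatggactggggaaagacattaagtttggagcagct
The window of 4921534H16Rik, one of the most abundant antisense genes, lies inside the synaptic gene Clstn2 at chr9:98003170-98003469 on the plus strand, and that of Rab11fip4os2 inside Rab11fip4 at chr11:79675037-79675336 on the minus strand.
4921534H16Rik: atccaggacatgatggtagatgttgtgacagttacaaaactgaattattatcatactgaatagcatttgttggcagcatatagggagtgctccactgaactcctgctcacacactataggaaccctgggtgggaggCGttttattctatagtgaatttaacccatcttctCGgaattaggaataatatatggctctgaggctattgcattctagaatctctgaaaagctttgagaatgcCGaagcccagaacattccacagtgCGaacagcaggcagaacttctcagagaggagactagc
Rab11fip4os2: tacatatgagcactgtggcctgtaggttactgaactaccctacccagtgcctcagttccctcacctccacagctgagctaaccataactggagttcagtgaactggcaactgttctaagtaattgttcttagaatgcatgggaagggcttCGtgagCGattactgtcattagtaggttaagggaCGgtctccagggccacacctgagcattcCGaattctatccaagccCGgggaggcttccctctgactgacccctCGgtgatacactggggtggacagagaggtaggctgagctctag
The windows of Gm15723 at chr10:114801476-114801775 (plus strand) and Rab10os at chr12:3235541-3235840 (plus strand) are shown as the CG-rich kind, the first lying at the shared start region of Trhde.
Gm15723: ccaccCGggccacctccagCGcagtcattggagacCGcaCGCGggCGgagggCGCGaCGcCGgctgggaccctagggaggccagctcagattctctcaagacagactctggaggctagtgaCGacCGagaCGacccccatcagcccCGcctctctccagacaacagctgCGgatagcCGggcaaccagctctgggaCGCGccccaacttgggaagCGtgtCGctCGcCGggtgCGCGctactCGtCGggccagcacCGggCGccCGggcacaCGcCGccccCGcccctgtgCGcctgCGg
Rab10os: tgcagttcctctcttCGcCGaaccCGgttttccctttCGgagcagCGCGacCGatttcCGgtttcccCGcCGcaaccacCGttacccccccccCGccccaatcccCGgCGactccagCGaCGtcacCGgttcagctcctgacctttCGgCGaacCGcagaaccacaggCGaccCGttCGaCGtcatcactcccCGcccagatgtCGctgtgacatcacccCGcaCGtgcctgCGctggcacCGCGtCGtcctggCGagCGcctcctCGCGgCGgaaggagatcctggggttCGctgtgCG

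The Dlx6os1 windows held 5 and 3 CG dinucleotides, 4921534H16Rik 4 and Rab11fip4os2 6, whereas Gm15723 held 34 and Rab10os 39. The median was 6 in the antisense windows and 7 in all 32851 windows. A search of both strands for 4 motifs counted the TATA box (TATAAA), the GC box (GGGCGG), the CCAAT box (CCAAT) and a homeobox core (TAATTA), overlaps included. TATAAA was in 8.74% of antisense windows and 13.6% of all windows, and GGGCGG in 26.6% and 35.7%. CCAAT was in 32.6% and 37.4%, and TAATTA in 5.41% and 5.29%. Both Dlx6os1 windows hold TAATTA, the upstream one also CCAAT and the downstream one also TATAAA. Gm15723 and Rab10os hold GGGCGG and CCAAT, and 4921534H16Rik and Rab11fip4os2 hold none of the 4.

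Most antisense transcripts were scarce. Over the 16 mice the mean level ranged from 0.00625 to 14.7 FPKM, with a median of 0.112 and quartiles of 0.0414 and 0.296. At least 0.1 FPKM was reached by 878 transcripts (52.7%), at least 0.5 FPKM by 222 (13.3%) and at least 1 FPKM by 82 (4.92%). Long intergenic noncoding RNAs (lincRNA, n = 1549) had a median of 0.0994 FPKM and protein coding transcripts (n = 56384) of 0.309 FPKM, with 7.04% and 27.1% at 1 FPKM or more. With a median length of 772 bases, an antisense transcript rested on an estimated median of 2.21 fragments per mouse. Only 385 (23.2%) had 10 or more, so that most single values are imprecise.

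Their total did not separate the groups. Summed antisense levels were 455, 483, 472 and 501 FPKM in HC (mean 478 ± 19.4 SD, n = 4) and 424, 476, 476 and 472 FPKM in Ctrl (462 ± 25.3). They were 403, 521, 457 and 467 FPKM in NLH (462 ± 48.5) and 424, 448, 424 and 459 FPKM in LH (439 ± 17.7). The groups overlapped in each comparison, and two-sided exact permutation tests gave p = 0.371 for Ctrl against HC, 1 for NLH against Ctrl, 0.229 for LH against Ctrl and 0.514 for LH against NLH. The smallest p that 4 against 4 mice allow is 0.0286.

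Of the 1353 genes, 1344 could be placed in GENCODE vM21 (build GRCm38), and 1159 overlapped a measured protein coding gene on the other strand, here called the partner, whereas 185 did not. The antisense gene lay inside the span of the partner in 739 pairs. In 224 pairs the genes overlapped head to head, at their 5′ ends, and in 180 tail to tail, at their 3′ ends. In 16 pairs the antisense gene spanned the partner. Exons of both genes overlapped in 674 pairs, by a median of 213 bases. The sources do not state whether reads were assigned by strand, so in these exons reads of a gene and its antisense partner may be mixed.

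Partners were mostly the more abundant side. The median partner had 20.4 times the FPKM of its antisense gene, and 812 antisense genes (70.1%) were at 10% of the partner or less. The median ratio was 20.2 in pairs with overlapping exons and 20.8 in pairs without. Only 48 antisense genes exceeded their partner, 19 of them with 0.5 FPKM or more.

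The 2 most abundant antisense genes varied widely within groups. Gm28221, inside Ncald, a neuronal calcium sensor gene (chr15:37367205-37368498, plus strand), had the highest mean of all at 14.7 FPKM. Its values were 14.5, 18.6, 27.3 and 27.2 FPKM in HC, 0.922, 24.6, 33.0 and 12.5 FPKM in Ctrl, below 0.001, 17.1, 7.94 and 11.8 FPKM in NLH, and below 0.001, 29.5, below 0.001 and 10.96 FPKM in LH. The lowest mouse was at 0.922 FPKM in Ctrl and below 0.001 FPKM in NLH and LH, while the highest of each group exceeded 10 FPKM. Gm37401, tail to tail with Rhoa, a GTPase of the actin cytoskeleton (chr9:108337089-108338273, minus strand), averaged 12.7 FPKM. Its level was 18.5, 19.2, 14.4 and 21.7 FPKM in HC, 8.52, 10.3, 14.1 and 20.3 FPKM in Ctrl, 3.26, 16.9, 13.2 and 16.5 FPKM in NLH, and 10.6 and 15.3 FPKM in LH1 and LH2. In LH3 and LH4 it was below 0.001 FPKM, the libraries with fewer detected transcripts.

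Other abundant genes were steadier. 4921534H16Rik, inside Clstn2, a calsyntenin of synapses, ranged from 5.20 to 7.15 FPKM in the 12 mice other than LH. In LH its values were 4.61, 4.35, 3.89 and 5.93 FPKM, the first 3 of them below all other mice. Over all groups its limma F test gave an adjusted p of 0.365. 4933431E20Rik, the gene with the most transcripts (9), lies head to head with the glutathione transferase gene Gstm5 and ranged from 3.72 to 7.53 FPKM. Rab10os, at the vesicle GTPase gene Rab10, ranged from 2.52 to 4.43 FPKM. Gm37459, at Pex5l, whose product binds HCN channels, had 1.94, 2.56, 5.78 and 1.47 FPKM in LH, with both the highest and the lowest mouse of all groups there. RP23-65B16.5 had 54.5 FPKM in NLH2 and was listed at 0 in the other 15 mice, which placed it among the 10 most abundant genes through 1 library.

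**Figure D2:**
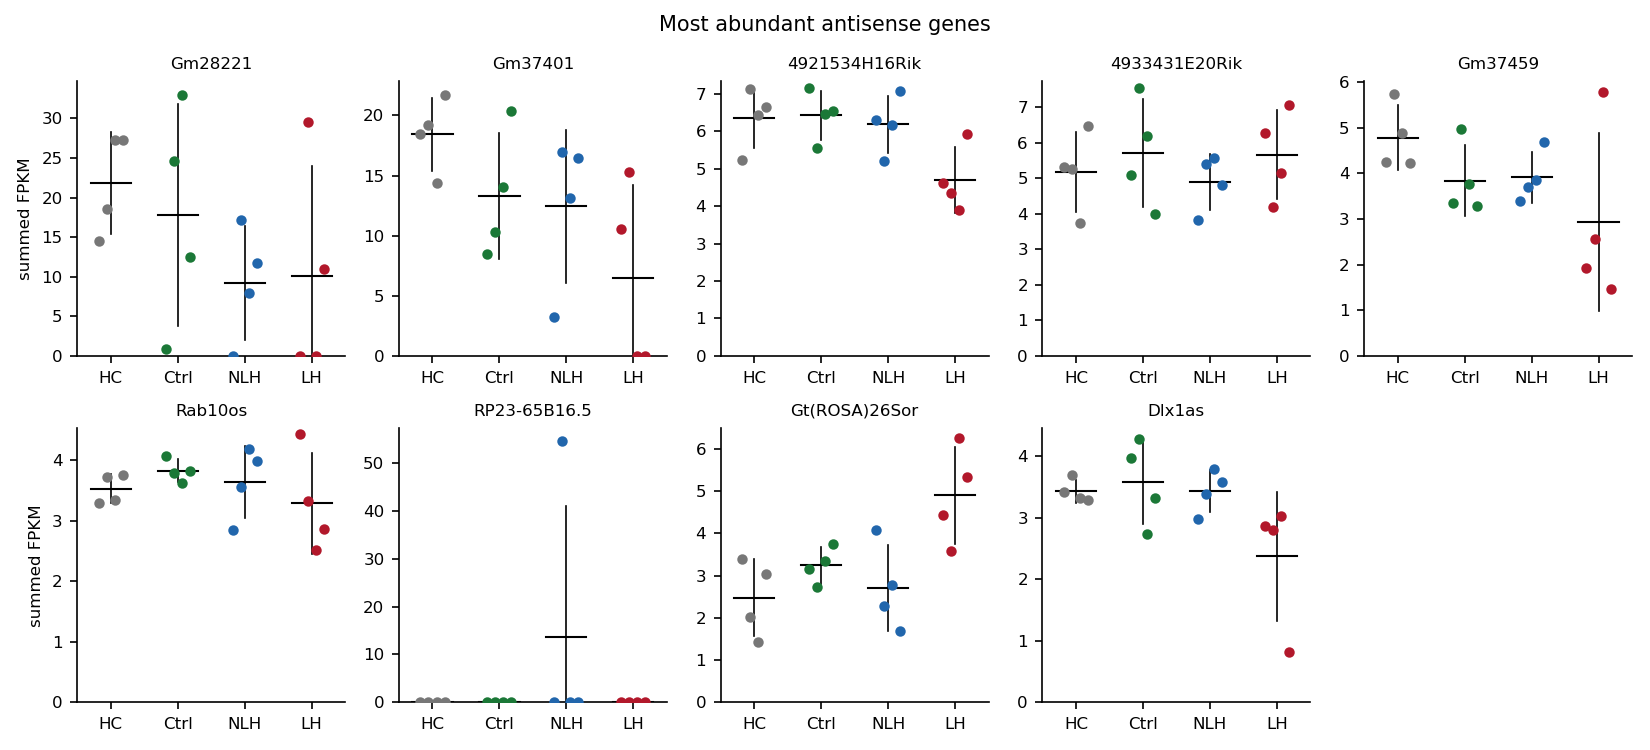
FPKM of 9 of the 10 most abundant antisense genes (linear axes from 0), each mouse as a point by group with mean and SD, 4 mice per group. Gm28221 and Gm37401 reach 33.0 and 21.7 FPKM yet fall below 0.001 FPKM in some LH mice, whereas Rab10os stays between 2.52 and 4.43 FPKM.

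Of 35 antisense RNAs on a list of known names, 11 were measured here. Dlx1as, which spans Dlx1, was highest with a mean of 3.21 FPKM, its values lying between 2.74 and 4.28 FPKM in 15 mice and at 0.812 FPKM in LH4. Dlx6os1 averaged 3.05 FPKM as a gene, Zeb2os, inside the gene of the transcription factor Zeb2, 1.40 FPKM, Emx2os 0.816 FPKM and Airn 0.567 FPKM. Zeb2os ranged from 0.927 to 2.06 FPKM and Emx2os from 0.613 to 1.16 FPKM, with overlap among all groups. Chn1os1 averaged 0.223 FPKM, Chn1os3 0.0837, Nkx2-2os 0.0801, Nespas 0.0448, Hoxaas3 0.0123 and Uchl1os 0.0083 FPKM. Hoxaas3 was above 0 in 2 mice and Uchl1os in 1. Nespas, of the imprinted Gnas locus, was listed at 0 in LH2, LH3 and LH4 and had 0.0176 FPKM in LH1, near the limit of measurement. The smallest adjusted p of the limma F test in this list was 0.203, for Dlx6os1.

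Differences between groups were tested by the rule of the study, a comparison of mean FPKM with an unadjusted p under 0.05, and with limma on log2(FPKM + 0.1) with Benjamini-Hochberg adjustment over all 80137 transcripts. No antisense transcript passed the adjusted limma threshold in any of the 4 comparisons or in the F test, where 42, 47, 138 and 133 had an unadjusted p under 0.05 in Ctrl against HC, NLH against Ctrl, LH against Ctrl and LH against NLH. Among all transcripts the adjusted limma threshold was passed by 3 (0.00374%), 10 (0.0125%), 37 (0.0462%) and 33 (0.0412%), and by 76 (0.0948%) in the F test. Unadjusted limma p under 0.05 was found in 3.45%, 5.12%, 10.7% and 8.72% of all transcripts and in 2.52%, 2.82%, 8.28% and 7.98% of antisense transcripts. The LH values without LH3 and LH4 were 143 antisense transcripts (8.58%) against Ctrl, 65 higher and 78 lower, and 115 (6.90%) against NLH, 59 higher and 56 lower, where 14.3% and 11.1% of all had one. Of all 80137 transcripts 7681 were there higher and 3741 lower against Ctrl, and 5766 higher and 3125 lower against NLH. With LH3 and LH4 the split was 25 higher and 113 lower against Ctrl and 26 higher and 107 lower against NLH. Of all 80137 transcripts 3337 were then higher and 5242 lower against Ctrl, and 2389 higher and 4600 lower against NLH. In the F test 96 antisense transcripts (5.76%) and 8.79% of all had an unadjusted p under 0.05, and without LH3 and LH4 it was 91 (5.46%) and 13.6%.

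By the unadjusted test of the study, 71 of 1587 antisense transcripts tested (4.47%) were called in Ctrl against HC, below the 6.8% of all transcripts. There were 34 higher and 37 lower in Ctrl, where 3.92% of all transcripts were higher and 2.88% lower. In NLH against Ctrl 64 of 1594 (4.02%) were called, below the 7.32% of all transcripts, with 31 higher and 33 lower in NLH (4.17% and 3.15% of all transcripts). After division by median-ratio size factors the split there was 24 higher and 40 lower, where 3.58% of all transcripts were higher and 4.03% lower. None of these calls remained after adjustment. At a mean of 1 FPKM or more 8 of 81 were called in Ctrl against HC and 6 of 82 in NLH against Ctrl, where 11.4% and 12.7% of all transcripts of that level were.

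In LH mice the calls leaned to one side. For LH against Ctrl, after removal of transcripts that also differed in Ctrl against HC or NLH against Ctrl, 94 of 1423 antisense transcripts (6.61%) were called, close to the 6.26% of all transcripts, with 8 higher and 86 lower in LH. Among all transcripts 2.29% were called higher and 3.97% lower in this comparison. For LH against NLH 75 of 1413 (5.31%) were called, above the 4.01% of all transcripts, with 9 higher and 66 lower, where 1.15% of all transcripts were higher and 2.86% lower. With size factors 91 were called against Ctrl (6.65% of all transcripts), 4 higher and 87 lower, where 3.18% of all were higher and 3.47% lower. Against NLH 70 were called (4.34% of all), 6 higher and 64 lower, where 1.69% of all were higher and 2.65% lower. The 2 comparisons share the LH mice. None of the called transcripts passed adjustment.

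The lean was smaller without LH3 and LH4. Without these libraries LH against Ctrl called 79 of 1399 antisense transcripts, 38 higher and 41 lower, where 11.5% of all transcripts were called, 8.28% higher and 3.18% lower. LH against NLH called 44 of 1392, 24 higher and 20 lower, where 5.71% of all were called, 4.06% higher and 1.65% lower. Of the 86 transcripts called lower against Ctrl, 38, 36, 52 and 59 were below 0.001 FPKM in LH1 to LH4, against 3, 4, 6 and 4 in Ctrl1 to Ctrl4. Of these 86, 26 were below 0.001 FPKM in all 4 LH mice. Of the 66 called lower against NLH, 26, 24, 44 and 47 were so in LH1 to LH4, against 3, 2, 3 and 3 in NLH1 to NLH4. Both sets were chosen for lower LH values, so more values near 0 in LH than in the other group follow from that choice. The called transcripts were scarce, with median levels of 0.218 and 0.146 FPKM in the 2 comparisons. At a mean of 1 FPKM or more, with LH3 and LH4 included, 5 of 68 tested were called lower and 1 higher against Ctrl. Of all transcripts of that level 4.17% were lower and 5.6% higher. Against NLH 1 of 69 was lower and 1 higher, where 2.21% and 1.97% of all were. The part of library depth in these calls was not tested beyond the values without LH3 and LH4.

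Among the 222 antisense transcripts with a mean of 0.5 FPKM or more, the median difference LH minus Ctrl was -0.19 on the log2(FPKM + 0.1) scale, with 67.6% negative, against -0.06 and 56.1% for all 34677 transcripts of that level. Without LH3 and LH4 it was -0.18 with 60.8% negative, against 0.13 and 38.5% for all. After division by size factors it was -0.12, against 0.01 for all. For LH minus NLH the median was -0.15 against -0.08 for all. Without LH3 and LH4 it was -0.08 against 0.10, and with size factors -0.04 against 0.03. NLH minus Ctrl gave -0.07 against 0.02, with 63.1% of antisense and 47.0% of all transcripts negative. For Ctrl minus HC the median was 0.03 against 0.02.

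Partners of the antisense transcripts called lower in LH differed by small amounts in the median. Of the 83 such transcripts with a partner in LH against Ctrl, the partner was lower in LH for 49, with a median log2 difference of -0.06, where 562 of all 1159 partners were lower with a median of 0.01. In LH against NLH the partner was lower for 40 of 57, with a median of -0.09, where 715 of all 1159 were lower with a median of -0.06. No partner passed the adjusted limma threshold in either comparison. Scaling and the 2 libraries turned the sign of these medians, and moved all partners as well. With size factors 39 of 83 and 24 of 57 partners were lower (median 0.01 and 0.03), where 425 and 474 of all 1159 were (medians 0.08 and 0.05). Leaving out LH3 and LH4, for the same transcripts 20 of 83 and 19 of 57 were lower (0.17 and 0.11), where 243 and 312 of all 1159 were (0.20 and 0.13). For the transcripts called lower without these libraries it was 6 of 38 and 9 of 19 (0.13 and 0.04), beside the same 243 and 312 of all 1159.

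The transcripts named in each comparison are the 5 with the smallest limma p among those with a mean of at least 0.5 FPKM. Dlx6os1 (ENSMUST00000159827.2, chr6:6820189-6861591, minus strand) was among them in 3 of the 4. The 5′ start of this transcript lies 1742 bases from Dlx6, a homeobox gene of GABA neurons, on the other strand. It had 2.29, 2.08, 2.09 and 2.33 FPKM in HC (2.20 ± 0.135), 2.25, 2.76, 3.03 and 3.39 FPKM in Ctrl (2.86 ± 0.478), 2.19, 1.97, 2.17 and 2.00 FPKM in NLH (2.08 ± 0.115) and 3.39, 3.94, 3.65 and 3.16 FPKM in LH (3.54 ± 0.335). All LH mice exceeded all NLH mice, and all Ctrl mice did too, whereas LH and Ctrl overlapped. The limma difference LH minus NLH was 0.73 ± 0.13 (SE) on the log2 scale (adjusted p = 0.0579, exact permutation p = 0.0286), and it was 0.79 without LH3 and LH4 (limma adjusted p = 0.0778). With 0.01 added in place of 0.1 the limma adjusted p was 0.0466, with size factors 0.0393 and without NLH1 0.0364. No antisense transcript passed in this comparison with 1 added or at a mean of at least 1 FPKM. None did with only the 2 groups compared or with the mouse number as a block. Summed over the gene, LH minus NLH was 0.71 (limma adjusted p = 0.299). NLH minus Ctrl was -0.43 ± 0.13 (limma adjusted p = 0.570, exact permutation p = 0.0286), and Ctrl minus HC was 0.35 ± 0.13 (unadjusted limma p = 0.0141, exact permutation p = 0.0857).

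The neighbouring Dlx genes and genes of GABA neurons overlapped between LH and NLH. Dlx6 had 0.560, 1.29, 1.53 and 0.532 FPKM in NLH and 0.859, 0.634, 3.28 and 0.921 FPKM in LH, where LH3 stood above the others (log2 difference 0.34 ± 0.47, limma adjusted p = 0.882). Dlx5 was at 0.247 to 0.514 FPKM in NLH and 0 to 0.544 FPKM in LH. Gad1, which makes GABA, was at 36.9 to 48.1 FPKM in NLH and 37.5 to 51.9 FPKM in LH, and the vesicular GABA transporter Slc32a1 at 3.89 to 4.54 and 4.00 to 5.79 FPKM. Markers of the striatum, where Dlx genes are also expressed, summed to 12.8 to 18.1 FPKM in NLH and 11.2 to 22.9 FPKM in LH, with 9 of 11 markers at a mean of 0.1 FPKM or more. LH1 and LH2, at 20.3 and 22.9 FPKM, had the highest sums of all mice. Their part in the Dlx6os1 difference was not tested.

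St8sia3os (ENSMUST00000123473.1, chr18:64269400-64277171, minus strand) overlaps St8sia3, which encodes a sialyltransferase of the brain. Its level was 0.574, 0.831, 1.36 and 2.06 FPKM in Ctrl and 0.802, 0.379, 0.473 and 0.391 FPKM in NLH. In LH it was at most 0.000203 FPKM in each of the 4 mice, and in HC it was 0.852 and 0.849 FPKM in HC1 and HC4 and below 0.001 FPKM in HC2 and HC3. All LH mice were thus below all Ctrl and NLH mice, but HC mice without shock were also found near 0. The limma difference LH minus Ctrl was -3.57 ± 0.69, a value that depends on the 0.1 added and is no bound (adjusted p = 0.0952, exact permutation p = 0.0286). Ctrl minus HC was 1.95 ± 0.69, the smallest limma p at a mean of 0.5 FPKM or more in that comparison (limma adjusted p = 1, exact permutation p = 0.171). The exons of St8sia3os share 530 bases with those of St8sia3. St8sia3 itself had 3.54, 3.18, 4.17 and 3.42 FPKM in Ctrl, 8.24, 7.30, 5.85 and 7.35 FPKM in NLH and 6.05, 2.10, 6.08 and 13.03 FPKM in LH. All NLH mice exceeded all Ctrl mice (log2 difference 0.98 ± 0.35, limma adjusted p = 0.705, exact permutation p = 0.0286), whereas LH overlapped both.

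Transcripts lowest in NLH mice included Gm29542, inside Cbll1, an E3 ubiquitin ligase gene (chr12:31486958-31487889, plus strand), whose exons it overlaps by 704 bases. It had 3.23, 1.30, 0.951 and 1.34 FPKM in HC, 2.41, 2.61, 2.50 and 3.93 FPKM in Ctrl, 1.21, 0.0969, 0.0106 and 0.571 FPKM in NLH and 3.30, 6.55, 2.08 and 1.64 FPKM in LH. NLH was below Ctrl and below LH in every mouse, with log2 differences of -2.96 ± 0.65 for NLH minus Ctrl and 3.03 ± 0.65 for LH minus NLH (limma adjusted p = 0.313 and 0.165, exact permutation p = 0.0286 in both). Gt(ROSA)26Sor, the noncoding RNA of the Rosa26 locus that is used to carry transgenes, had a transcript (ENSMUST00000124246.3, chr6:113070398-113077210, minus strand) with 3.40, 0.584, 0.509 and 0.746 FPKM in NLH, 3.15, 2.72, 2.86 and 2.87 FPKM in Ctrl and 3.88, 3.11, 5.95 and 5.34 FPKM in LH. NLH1 lay within the range of the other groups and the other 3 NLH mice below them. The exons of the gene share 145 bases with those of its neighbour Thumpd3. Summed over its 4 transcripts, the gene had 4.08, 2.29, 2.78 and 1.70 FPKM in NLH, which overlapped Ctrl at 2.72 to 3.76 FPKM and HC at 1.43 to 3.40 FPKM. For this sum NLH minus Ctrl was -0.31 (limma adjusted p = 0.984) and LH minus NLH was 0.87 (limma adjusted p = 0.466). For the transcript, NLH minus Ctrl was -1.51 (limma adjusted p = 0.608, exact permutation p = 0.143), and -2.09 without NLH1 (limma adjusted p = 0.0248). LH minus NLH was 2.10 ± 0.46 for the transcript (limma adjusted p = 0.173, exact permutation p = 0.0571). Without NLH1 it was 2.68 (limma adjusted p = 0.00222), so that the threshold was passed only with that mouse left out. The same holds for Gm29542 (3.64, limma adjusted p = 0.0194 without NLH1).

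Gm44026, inside Wipf3, which binds the actin regulator WASP (chr6:54463685-54473170, minus strand), had 2.49, 3.74, 3.08 and 2.35 FPKM in HC, 2.84, 2.48, 2.66 and 2.37 FPKM in Ctrl, 1.32, 1.49, 1.90 and 1.63 FPKM in NLH and 1.38, 1.92, 2.50 and 1.84 FPKM in LH. Every NLH mouse was below every Ctrl and HC mouse, and LH lay between with overlap (NLH minus Ctrl -0.68 ± 0.18, limma adjusted p = 0.468, exact permutation p = 0.0286). Rab11fip4os2, inside the gene of a Rab11 effector, had 0.938, 0.691, 0.874 and 0.959 FPKM in Ctrl and 0.0908, 0.693, 0.149 and 0.379 FPKM in NLH. One NLH mouse lay within the Ctrl range (-1.39 ± 0.42, limma adjusted p = 0.593, exact permutation p = 0.0571).

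Some transcripts were lowest in LH. Gm16135 (chr10:62998779-62999689, plus strand), which has no measured partner, had 0.859, 0.404, 1.11 and 0.727 FPKM in HC, 0.860, 0.985, 0.936 and 0.586 FPKM in Ctrl, 1.70, 1.10, 1.497 and 1.17 FPKM in NLH and 0.499, 0.150, 0.577 and 0 FPKM in LH. LH was below Ctrl and NLH in every mouse but overlapped HC, LH minus Ctrl was -1.55 ± 0.49 (limma adjusted p = 0.276, exact permutation p = 0.0286), and LH minus NLH was -2.19 ± 0.49 (limma adjusted p = 0.192, exact permutation p = 0.0286). 5830468F06Rik, inside Kbtbd11 (chr8:15015092-15018907, minus strand), had 0.749, 0.465, 0.898 and 0.609 FPKM in Ctrl and 0.423, 0.351, 0.241 and 0.177 FPKM in LH, with no overlap (-0.98 ± 0.27, limma adjusted p = 0.204, exact permutation p = 0.0286). Ube4bos3, inside the ubiquitin ligase gene Ube4b with 296 bases of shared exons, had 0.875, 0.808, 0.687 and 0.941 FPKM in Ctrl and 0.297, 0.0883, 0.255 and 0.828 FPKM in LH, where LH4 lay within the Ctrl range (-1.22 ± 0.38, limma adjusted p = 0.270). Without LH3 and LH4 the difference was -1.76 (limma adjusted p = 0.0448).

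Gm13205 and Gm11583 had their highest levels in LH. Both reached the mean of 0.5 FPKM for naming only through LH, so their LH tests are not free of that choice. Gm13205, inside the zinc finger gene Casz1 (chr4:148947492-148948914, minus strand) with 122 bases of shared exons, had 0.285 and 1.06 FPKM in NLH1 and NLH2, below 0.001 FPKM in NLH3 and NLH4, and 2.36, 1.40, 1.92 and 4.10 FPKM in LH. LH exceeded NLH in every mouse (3.19 ± 0.81, limma adjusted p = 0.263, exact permutation p = 0.0286), whereas Ctrl reached 1.51 FPKM. Casz1 was at 0.0188 to 0.157 FPKM in LH, below its antisense transcript in every LH mouse. Gm11583, inside Kpnb1, the importin beta gene (chr11:97160990-97161675, plus strand) with 466 bases of shared exons, had 3.62, 2.04 and 6.26 FPKM in LH2, LH3 and LH4, 0.493 FPKM in NLH3 and below 0.001 FPKM in the other 12 mice, LH1 included (LH minus Ctrl, limma adjusted p = 0.169, exact permutation p = 0.143). Without LH1, the only LH mouse below 0.001 FPKM, the log2 difference was 5.21 for LH minus Ctrl (limma adjusted p = 0.00250). For LH minus NLH it was 4.57 (limma adjusted p = 0.00821). The threshold was passed only with LH1 left out, and leaving out the LH mouse near 0 favours the difference. Without LH3 and LH4 LH minus Ctrl was 2.61 (limma adjusted p = 0.292). The log2 differences LH minus NLH without LH3 and LH4 were 3.67 for Gm29542, 1.76 for Gt(ROSA)26Sor, -1.90 for Gm16135 and 2.89 for Gm13205, and those of LH minus Ctrl were -3.57 for St8sia3os and -0.65 for 5830468F06Rik, none with a limma adjusted p under 0.05.

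In Ctrl against HC, Gm42756 (chr9:109537100-109552780, plus strand) had 0.828, 0.996, 0.859 and 0.793 FPKM in HC and 0.640, 0.603, 0.619 and 0.494 FPKM in Ctrl, with no overlap (-0.49 ± 0.20, unadjusted limma p = 0.0262, exact permutation p = 0.0286). Gm10516, at the corepressor gene Rcor3, had 0.969, 0.794, 0.830 and 1.04 FPKM in HC and 0.987, 1.10, 1.29 and 1.37 FPKM in Ctrl, and Ctrl1 lay within the HC range (exact permutation p = 0.0571). Man2c1os, head to head with the mannosidase gene Man2c1, had 0.531, 0.736, 0.522 and 0.789 FPKM in HC and 0.527, 0.460, 0.416 and 0.330 FPKM in Ctrl, where Ctrl1 lay within the HC range (exact permutation p = 0.0571). Gm10516 and Man2c1os share 336 and 327 bases of exons with their partners. All 3 had a limma adjusted p of 1.

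**Figure D3:**
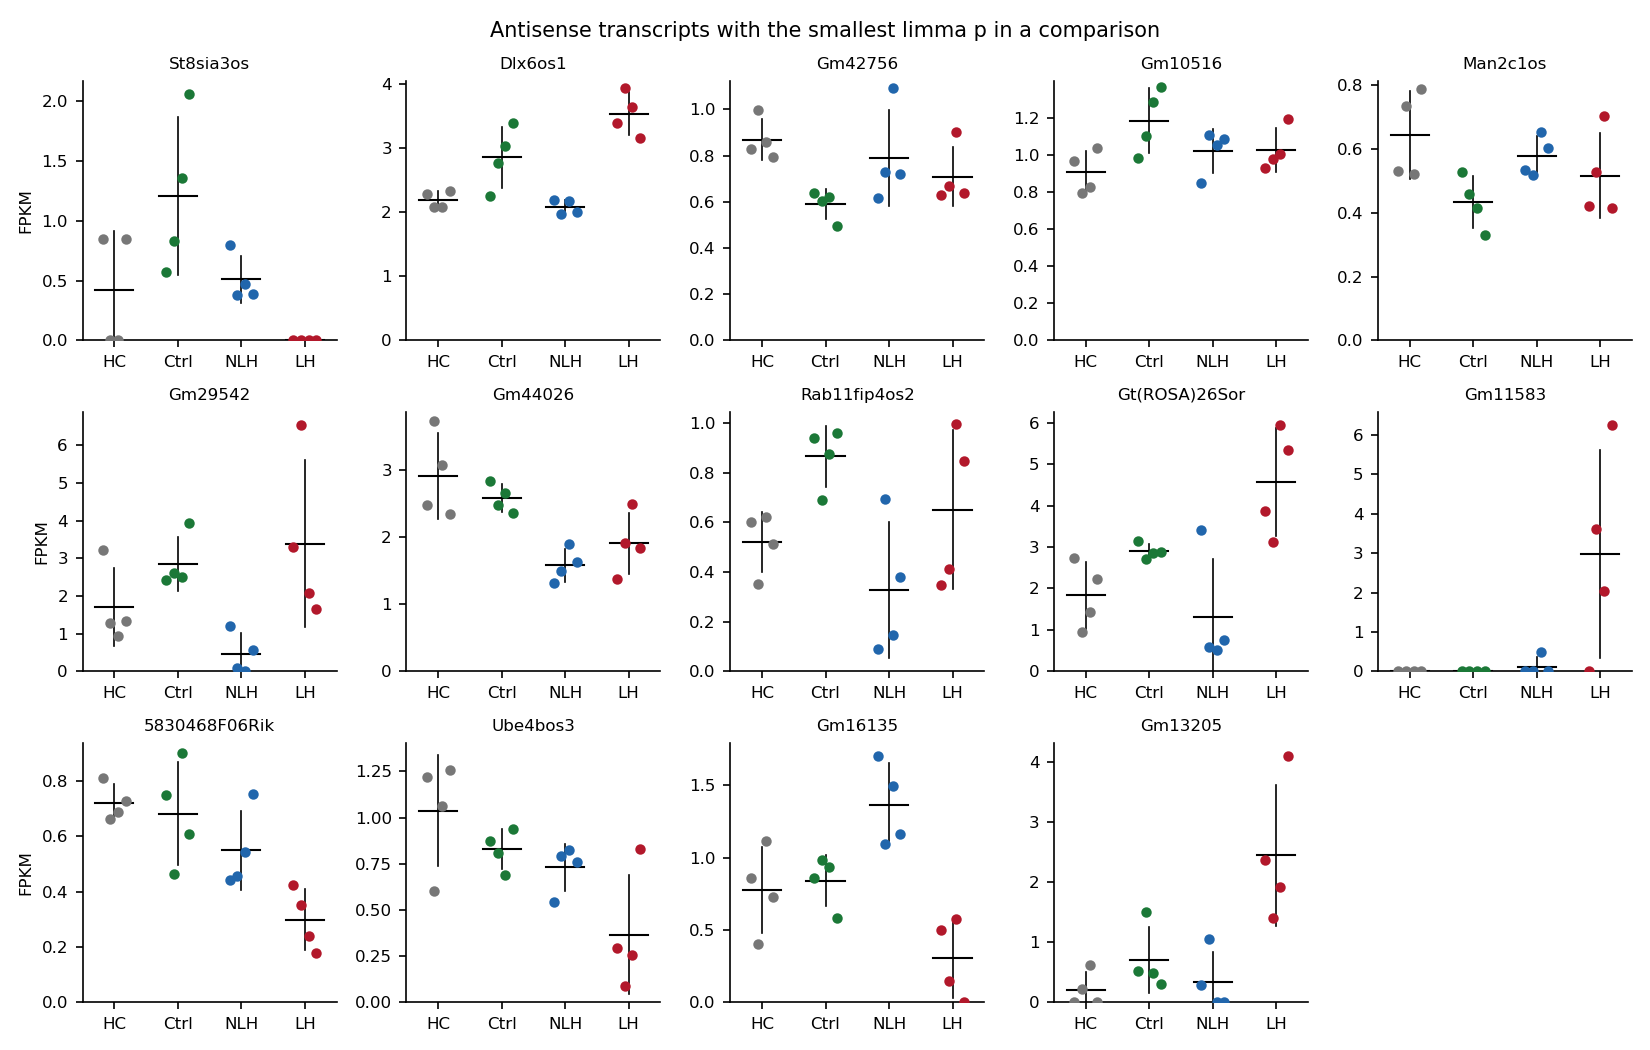
FPKM of the antisense transcripts with the smallest limma p in a comparison (linear axes from 0), each mouse as a point by group with mean and SD, 4 mice per group. Dlx6os1 spans 3.16 to 3.94 FPKM in LH and 1.97 to 2.19 FPKM in NLH, and St8sia3os is at most 0.000203 FPKM in LH.

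Whether an antisense gene and its partner moved together was asked across the 16 mice, after removal of the group means, for the 677 pairs with a mean of at least 0.1 FPKM in both genes; the other 482 pairs were below this level. No pair passed the adjusted threshold, and none of the 2340 overlapping opposite-strand pairs of the whole table did (0%), with smallest adjusted permutation p-values of 0.241 and 0.222. Unadjusted p under 0.05 was found in 41 antisense pairs (6.06%), 24 of them with positive r, where 10.4% of all 2340 pairs and 12.1% of the 1663 other pairs had one. With size factors 6.2% of antisense pairs, 8.06% of other pairs and 7.52% of all had one. The shares were 4.73%, 8.12% and 7.14% without LH3 and LH4. With group means kept 2 antisense pairs passed the adjusted threshold, where 0.897% of all pairs did, and with the mouse number as a block 3 did, where 1.28% of all pairs did.

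Correlations were centred near 0. The median r over antisense pairs was 0.0737, with quartiles of -0.185 and 0.317 and 57.6% above 0. The other opposite-strand pairs had a median of 0.178, with 65.5% above 0. The gap depended on scaling, since with median-ratio size factors the medians were 0.0443 for antisense and 0.0446 for other pairs. They were 0.0150 and 0.104 without LH3 and LH4. All 9081955 combinations of these antisense genes with 13415 coding genes, which share the same libraries, had a median of 0.0563 and 55.5% above 0. An r of at least 0.5 was found in 11.5% of antisense pairs, 22.4% of other pairs and 11.5% of all combinations. An r of -0.5 or less was found in 6.94%, 4.87% and 7.97%. These shares are descriptions, since pairs of the same mice are not independent.

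By arrangement, the median r was 0.140 for 120 head to head pairs, 0.116 for 109 tail to tail pairs, 0.0456 for 437 antisense genes inside their partner and 0.185 for 11 that span it. Other pairs had 0.200, 0.214, 0.0861 and 0.168 in the same order. The order of the antisense arrangements was not stable. With size factors the median was -0.00114 head to head, -0.00823 tail to tail and 0.0787 inside, and without LH3 and LH4 it was 0.0290, -0.0209 and 0.0172. Antisense pairs with overlapping exons had a median of 0.0901 (n = 393) and those without 0.0621 (n = 284), an order that turned with size factors (0.0172 and 0.0704) and without LH3 and LH4 (0.00528 and 0.0416). In the 195 pairs with at least 0.5 FPKM in both genes the median was 0.0271.

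**Figure D4:**
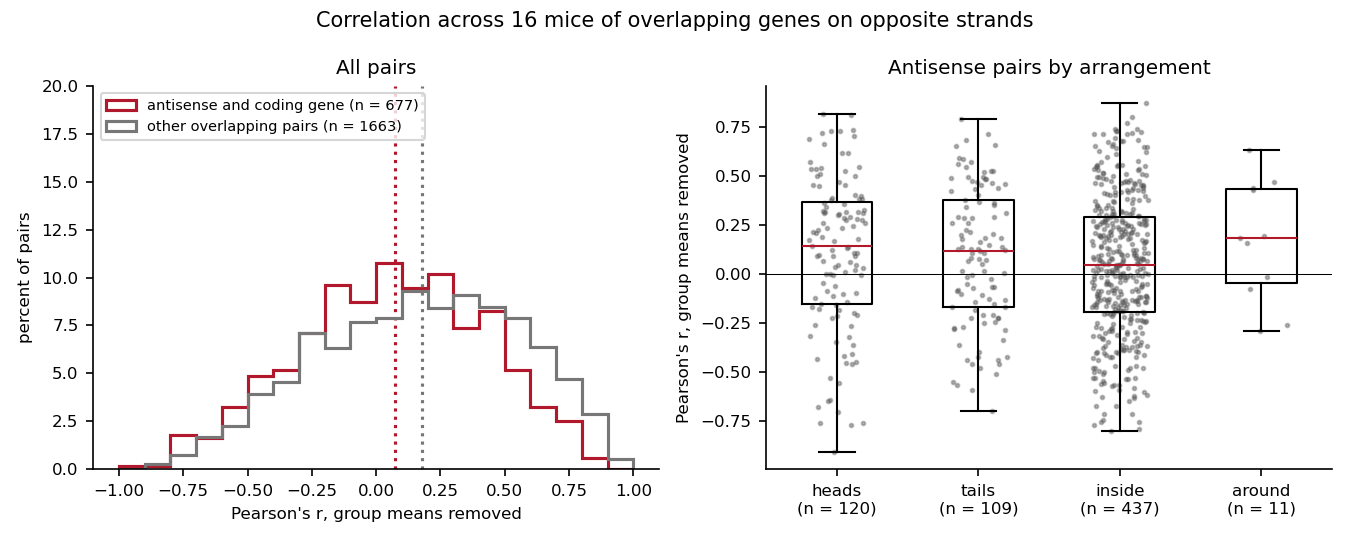
Left, percent of pairs by Pearson's r over 16 mice with group means removed, for antisense pairs and other opposite-strand pairs, dotted lines at the medians (0.0737 and 0.178). Right, r of antisense pairs by arrangement, boxes at the quartiles with the median in red (0.140 head to head, 0.116 tail to tail, 0.0456 inside, 0.185 around) and each pair as a point. With size factors the gap on the left was not present (0.0443 and 0.0446), and the order of head to head, tail to tail and inside pairs turned.

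Pairs named are the 8 highest and 5 lowest r among those 195. LH4 was one of the 2 mice farthest from the median of the antisense gene in all 13 of them, and 8 of the 13 antisense genes were below 0.001 FPKM in LH4. Without the 2 farthest mice an absolute r of at least 0.5 was left in 3 of the 13, and the sign turned in 5. Without LH4 alone an absolute r of at least 0.5 was left in 2 of the 13, Gm28192 and Gm37401, and the sign turned in 4. The 3 pairs that kept this size without the 2 farthest mice are given first, also without LH3 and LH4.

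Gm28192, inside the casein kinase gene Csnk1d (chr11:120963844-120964764, plus strand), ranged from 0 in LH4 to 1.96 FPKM in HC1, and Csnk1d from 7.19 FPKM in LH4 to 20.1 FPKM in Ctrl2. The pair had r = 0.711 (permutation p = 0.0115, adjusted p = 0.347) and rho = 0.641 (permutation p = 0.0168), r = 0.589 without HC1 and LH4, and r = 0.514 without LH3 and LH4. With group means kept its r was 0.799 (adjusted permutation p = 0.0390), and 63 bases of exons overlap.

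Gm16152, inside Aff3, a nuclear protein gene (chr1:38384949-38393974, plus strand), moved against its partner. It had 0.218, 0.570, 0.594 and 0.658 FPKM in HC, 0.401, 0.538, 0.671 and 0.585 in Ctrl, 0.653, 0.752, 0.370 and 0.402 in NLH and 0.551, 0.302, 0.306 and 1.05 FPKM in LH. Aff3 had 4.05, 4.30, 3.58 and 2.96 FPKM in HC, 4.76, 4.03, 2.00 and 2.37 in Ctrl, 1.01, 2.62, 5.00 and 4.60 in NLH and 5.55, 3.49, 7.81 and 0.0242 FPKM in LH. LH4 had the highest antisense level and the lowest Aff3 level, and the mice with low Aff3 in Ctrl and NLH had the higher antisense values of their groups. The r was -0.716 (permutation p = 0.00943, adjusted p = 0.329), rho was -0.732 (permutation p = 0.00311), and r was -0.602 without LH4 and HC1 and -0.453 without LH3 and LH4. No exons of this pair overlap.

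Rapgef4os2 and Rapgef4os3 both lie inside Rapgef4, which encodes the cAMP sensor Epac2, and share this partner. Rapgef4os2 ranged from 0.622 FPKM in LH2 to 1.37 FPKM in LH4, and Rapgef4 from 41.9 FPKM in LH4 to 119 FPKM in NLH3. Rapgef4os2 had r = -0.801 (permutation p = 0.0216, adjusted p = 0.392) and rho = -0.582 (permutation p = 0.0528), with r = -0.567 without LH4 and Ctrl3 but -0.254 without LH3 and LH4. Rapgef4os3 had r = -0.755 (permutation p = 0.0456, adjusted p = 0.461) and rho = -0.485 (permutation p = 0.177), with r = -0.325 without LH4 and LH2 and -0.0388 without LH3 and LH4.

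Prox1os lies head to head with Prox1, the homeobox gene of dentate granule neurons (chr1:190170296-190217276, plus strand). It had 2.28, 1.73, 1.85 and 1.69 FPKM in HC, 1.96, 1.08, 1.68 and 2.45 in Ctrl, 0.806, 1.21, 2.09 and 1.27 in NLH and 1.22, 1.22, 1.40 and 0.358 FPKM in LH. Prox1 ranged from 5.83 FPKM in LH4, the lowest mouse for both genes, to 12.1 FPKM in NLH3. The pair had r = 0.731 (permutation p = 0.0252, adjusted p = 0.409) and rho = 0.626 (permutation p = 0.0265), with r = 0.463 without LH4 and Ctrl4 and 0.548 without LH3 and LH4. B430010I23Rik, inside the microtubule gene Mtus1, had r = 0.870 (permutation p = 0.0290, adjusted p = 0.433) and rho = 0.615 (permutation p = 0.0353). Its r fell to 0.398 without LH4 and NLH3 and to 0.734 without LH3 and LH4. With group means kept r was 0.267 for B430010I23Rik (permutation p = 0.301) and 0.617 for Prox1os (permutation p = 0.0156).

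In the remaining pairs r fell below 0.5 in size without LH4 and a second mouse. RP23-453G12.2, head to head with the chromatin gene Dpf2, was at 0 in LH4 and at 1.79 to 4.87 FPKM elsewhere, and Dpf2 at 39.9 FPKM in LH4 and 5.60 to 8.39 FPKM elsewhere. Its r of -0.908 (permutation p = 0.210, rho = -0.515, permutation p = 0.164) became 0.196 without LH4 and LH2 and 0.187 without LH3 and LH4. Gm15723, whose window is printed above, lies head to head with Trhde, which degrades thyrotropin-releasing hormone, and was below 0.001 FPKM in LH4 and at 0.985 to 2.50 FPKM elsewhere. Its r of 0.814 (permutation p = 0.0533, rho = 0.541, permutation p = 0.0803) fell to 0.273 without LH4 and Ctrl3 and to 0.170 without LH3 and LH4. For Gm37401 and Rhoa r was 0.716 (permutation p = 0.220, rho = 0.521, permutation p = 0.179) and -0.246 without LH3 and LH4. Sp3os with Sp3, Gm42902 with Ephx4 and Gm29480 with Gpc1, at r of 0.731, 0.716 and 0.711, fell to -0.0200, -0.309 and -0.0841 without the 2 farthest mice, and to 0.149, -0.0792 and 0.0535 without LH3 and LH4. 4921513I08Rik with Ntrk3, the neurotrophin receptor TrkC, went from -0.714 to -0.231, and to -0.256 without LH3 and LH4.

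**Figure D5:**
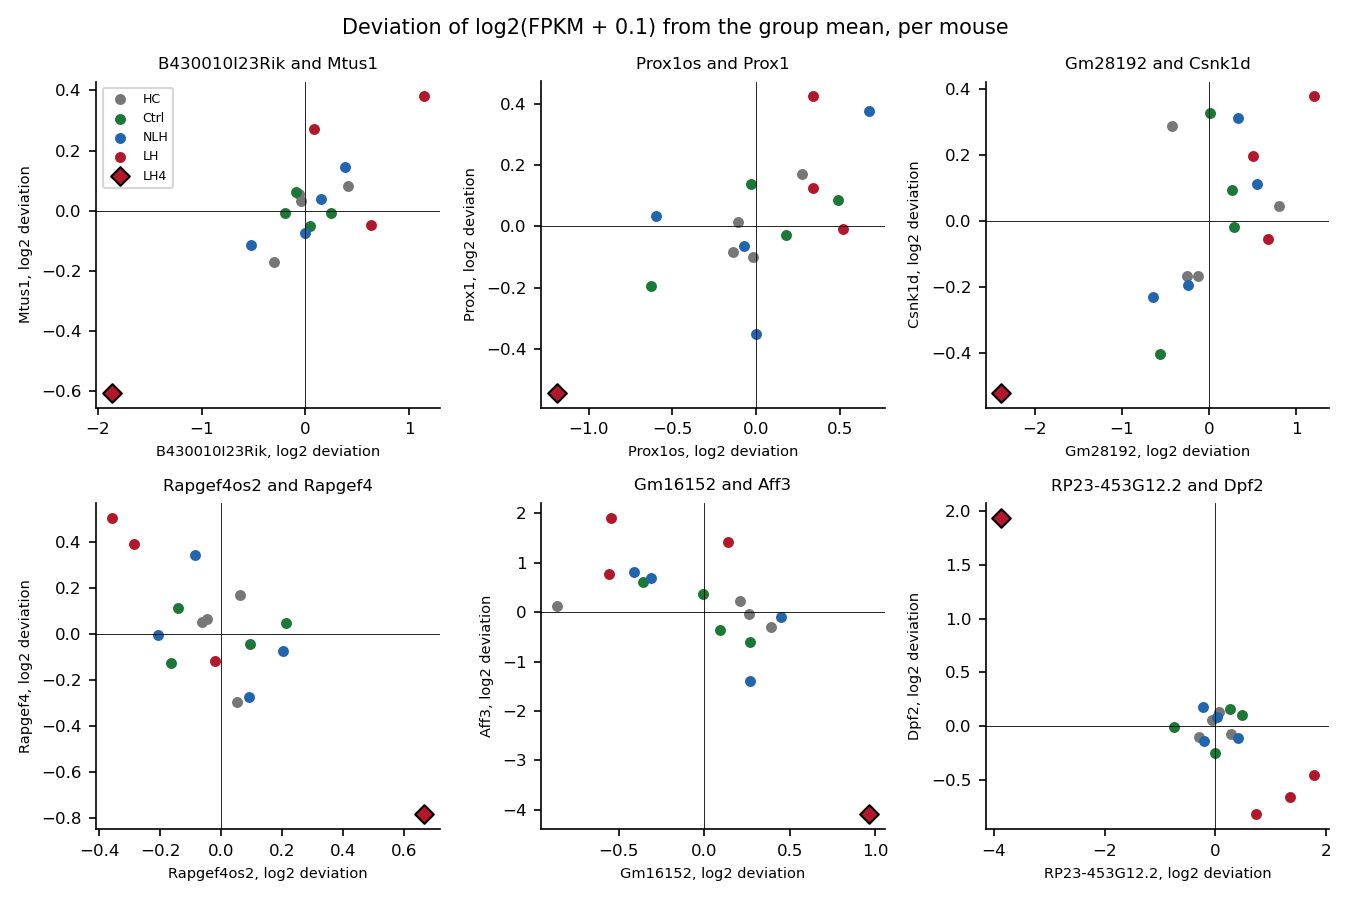
Deviation of log2(FPKM + 0.1) from the group mean, antisense gene on the horizontal and partner on the vertical axis, each mouse as a point coloured by group, LH4 as a diamond. In several pairs LH4 lies far from the other 15 mice, as for RP23-453G12.2 and Dpf2, where r is -0.908 with it and 0.352 without it.

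Of the list of known names, 6 genes had a partner and passed the level of 0.1 FPKM, each with positive r and none past the adjusted threshold. Emx2os, head to head with Emx2, had r = 0.662 (permutation p = 0.0786, adjusted p = 0.528) and rho = 0.700 (permutation p = 0.0192), with r = 0.654 without LH4 and NLH1 and 0.594 without LH3 and LH4. Dlx1as with Dlx1 had r = 0.630 (permutation p = 0.0418, adjusted p = 0.461) and rho = 0.515 (permutation p = 0.0620), which fell to 0.139 without LH4 and Ctrl2. Airn with the growth factor receptor gene Igf2r had r = 0.534 (permutation p = 0.120) and rho = 0.424 (permutation p = 0.179), and 0.153 without LH2 and NLH2. Dlx6os1 with Dlx6 had r = 0.185 (permutation p = 0.589) and rho = 0.0176 (permutation p = 0.957), and -0.319 without LH3 and LH2. Zeb2os with Zeb2 had r = 0.399 (permutation p = 0.249) and rho = 0.444 (permutation p = 0.138), and 0.254 without LH3 and NLH3. Chn1os1 with the Rac regulator gene Chn1 had r = 0.467 (permutation p = 0.191) and rho = 0.401 (permutation p = 0.197), and 0.481 without LH1 and Ctrl1. When LH3 and LH4 were left out r was 0.356 for Dlx1as, 0.330 for Airn, -0.333 for Dlx6os1, 0.462 for Zeb2os and 0.0292 for Chn1os1.

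A list of 124 genes of neurotransmission and the synapse held partners of 26 antisense genes. Of their 23 pairs tested, 10 had r above 0, where 57.6% of all antisense pairs did, with a median of -0.00576 and a range from -0.714 to 0.474, and none had an unadjusted p under 0.05, where 6.06% of all antisense pairs did. Grin1os, inside the NMDA receptor gene Grin1, was called lower in LH against Ctrl by the unadjusted test. It had 1.47, 1.54, 1.56 and 1.23 FPKM in Ctrl and 1.04, 0.717, 1.15 and 0.922 FPKM in LH, without overlap, while HC had 1.48, 2.13, 1.47 and 1.58 FPKM. Gm26653 at Grin2b and Gm27153 at the potassium channel gene Kcnq3 were called lower as well, making 3 of 22 transcripts tested, where 3.97% of all transcripts were lower. Against NLH 2 of 22 were called lower, Gm26653 and Gm20387 at the glutamate receptor gene Grm7, where 2.86% of all were. With LH3 and LH4 left out 1 of 22 was called lower in each, Grin1os against Ctrl (3.18% of all) and A830092H15Rik against NLH (1.65% of all). In NLH against Ctrl 3 of 27 transcripts of the list were called higher and 0 lower, where 4.17% and 3.15% of all were, and in Ctrl against HC 2 were higher and 1 lower (3.92% and 2.88% of all). Gm26653 had 0.224, 0.265, 0.127 and 0.260 FPKM in LH and 0.513, 0.602, 0.348 and 0.298 FPKM in Ctrl. No transcript of the list passed the adjusted limma threshold, and neither did any of its partners.

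A list of 94 transcription factor genes held partners of 26 antisense genes. Of 14 pairs tested, 11 had r above 0, where 57.6% of all antisense pairs did, with a median of 0.239 and a range from -0.513 to 0.731, and 2 had an unadjusted p under 0.05, Prox1os and Dlx1as, where 6.06% of all antisense pairs did. Gm28172, a second antisense gene at Prox1 (chr1:190168670-190169633, plus strand), was called lower in LH against Ctrl and against NLH. It had 0.413, 0.775, 0.570 and 0.793 FPKM in HC, 0.633, 0.343, 0.399 and 1.12 FPKM in Ctrl, 0.507, 0.140, 0.551 and 0.571 FPKM in NLH and 0, 0.194, 0 and 0 FPKM in LH. LH2 lay within the NLH range and the other LH mice were listed at 0, while Prox1 had 5.83 to 11.5 FPKM in LH. In this list 2 of 35 transcripts tested were called lower in each LH comparison and none higher, where 3.97% of all transcripts were lower and 2.29% higher against Ctrl, and 2.86% and 1.15% against NLH. With LH3 and LH4 left out none of 33 was called lower in either (3.18% and 1.65% of all), and 1, Gm27197, was called higher against NLH (4.06% of all). Gm28172 passed the limma threshold in LH against Ctrl when LH2 was left out (-2.74, limma adjusted p = 0.0192).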

How the data were processed

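Hippocampal RNA of 16 mice (4 per group, 1 library each) was sequenced as paired reads. Per the study's methods the authors aligned with HISAT2 to mm10, assembled with StringTie and quantified with Cufflinks; the submitters' processing notes name STAR 2.42a, StringTie 1.2.3 and Cufflinks. The deposited values are FPKM per transcript, not counts, normalised by the authors to transcript length and library size. Strand assignment is not given in the sources used here.

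Members were taken by type and gene name, and the members and gene lists were chosen with earlier results of these data known. Genes were placed in GENCODE vM21. Student's test on FPKM (p under 0.05) followed the study. LH comparisons leave out transcripts called in Ctrl against HC or NLH against Ctrl. limma 3.58.1 (R 4.3.3) was run with trend and robust on log2(FPKM + 0.1) over all 80137 transcripts, with Benjamini-Hochberg adjustment, so fold changes of low transcripts are understated. Exact permutation tests were two-sided.

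Gene levels are summed FPKM over Ensembl transcripts. Pair correlations used log2(FPKM + 0.1), group means removed, with two-sided p from 100000 shuffles within groups, adjusted over 2340 pairs. Of each pair both genes had a mean of at least 0.1 FPKM. Named were the 10 most abundant genes, the 5 smallest limma p per comparison at a mean of at least 0.5 FPKM, the 8 highest and 5 lowest r at 0.5 FPKM in both genes, members of a list of 35 known antisense RNAs, and pairs of the 2 lists. Other genes were named after their values were seen. A gene among the most abundant is not reported here.

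Depth is not in the files. It was estimated from the steps between low values of 1962 single-transcript loci, of which 69.2% to 77.7% lay within 0.1 of a whole fragment, too few to recover reads. No label states that mouse numbers pair mice across groups. Deviations of same-numbered mice had a median r of -0.00835, against -0.00123 for others, which does not test for a pairing. The scripts were tested on simulated data. Alternatives were the pseudocount, filters, size factors, adjustment, unequal variances, gene sums, a replicate block and mice left out. Nothing states more than 1 library per mouse, so p-values measure the spread between these mice. Python 3.11.15, scipy 1.17.1 and pandas 2.3.3 were used.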

Additional observations from a re-analysis of the deposited data

Results flagged for a closer look

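In 232 groups of 4 mice checked, 17 had a mouse apart from the other 3 by Dixon's criterion at the 95% level. Some groups were at 0 in the other 3 mice and many genes were named for their values, so no chance rate is set beside this count. In LH, LH4 stood apart low for Dlx1as at 0.812 FPKM and for Prox1os at 0.358 FPKM, and high for Dpf2 at 39.9 FPKM. LH3 stood apart for Gm42756 at 0.901 FPKM, and LH1 for Nespas at 0.0176 FPKM, where the other LH mice were listed at 0.

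In NLH, NLH1 stood apart for the Gt(ROSA)26Sor transcript at 3.40 FPKM, against 0.509 to 0.746 FPKM in the other NLH mice. NLH2 did for RP23-65B16.5 at 54.5 FPKM, with 0 in all other mice, and for Sp3 at 12.9 FPKM. NLH3 did for Gm11583 at 0.493 FPKM and Chn1os1 at 0.262 FPKM, and NLH4 for 4921513I08Rik at 0.750 FPKM and Hoxaas3 at 0.0876 FPKM.

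In Ctrl, Ctrl1 had the lowest summed antisense level at 424 FPKM, against 472 to 476 FPKM in the other 3 mice. Ctrl2 stood apart for Airn at 0.469 FPKM and Ctrl4 for Gm29542 at 3.93 FPKM. In HC, HC3 stood apart for Hoxaas3 at 0.109 FPKM and HC4 for Uchl1os at 0.133 FPKM, both with 0 in the other HC mice.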

How the results depend on the processing

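The precision of most values is limited by few fragments per transcript, and that of LH by LH3 and LH4. By Student's test the main counts were 71, 64, 94 and 75 in Ctrl against HC, NLH against Ctrl, LH against Ctrl and LH against NLH. With unequal variances 44 and 60 were called in Ctrl against HC and LH against Ctrl (5.3% and 4.74% of all transcripts). With a mean of at least 1 FPKM 8, 6, 6 and 2 were called of 81, 82, 68 and 69 tested (11.4%, 12.7%, 9.78% and 4.17% of all at that level), and after adjustment 0 in each comparison. Leaving out LH3 and LH4 left 44 in LH against NLH (5.71% of all). Leaving out 1 mouse gave 54 to 74, 40 to 73, 66 to 95 and 47 to 73, where 5.61% to 6.55%, 5.73% to 8.66%, 4.75% to 8.18% and 2.83% to 4.61% of all were called.

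What the mouse numbers stand for is not given. With them as a replicate block, Student's test called 46 in Ctrl against HC, 51 in NLH against Ctrl, 56 in LH against Ctrl and 49 in LH against NLH (5.18%, 5.95%, 4.61% and 3.37% of all), and 3 pairs passed the adjusted threshold (A830036E02Rik with Krt12, Gm15518 with Ift57 and Gm10561 with Rftn2). With group means kept 2 pairs passed (Gm28192 with Csnk1d and Gm44649 with Iqgap1).

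The adjusted limma threshold, passed by no antisense transcript in the comparisons as reported, was passed without LH3 and LH4 by 2 in LH against Ctrl, 1 in LH against NLH and 2 in the F test, where 0.413%, 0.0948% and 0.517% of all passed. It was passed with 0.01 added by 2 in LH against NLH and 1 in the F test (0.0724% and 0.12% of all), with size factors by 1 in each of these (0.0337% and 0.201%), and with a mean of at least 1 FPKM by 1 in the F test (0.199%). Leaving out 1 mouse gave 0 to 1, 0 to 1, 0 to 2 and 0 to 6, the 6 without NLH1, where 0.302% of all passed, and 0 to 3 in the F test. Over all transcripts these fits passed at most 0.0162%, 0.0586%, 0.387%, 0.302% and 0.301%. Size factors moved the median difference LH minus NLH of all transcripts at 0.5 FPKM or more from -0.08 to 0.03.

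The median r of antisense pairs, 0.0737, was 0.0588 with Spearman's rho, 0.0271 with plain FPKM, 0.0458 with 1 added, 0.0443 with size factors (other pairs 0.0446), 0.0966 at a mean of at least 1 FPKM, 0.0597 without a filter and 0.0150 without LH3 and LH4. Leaving out 1 mouse gave 0.0375 to 0.0863, and 0 pairs past the threshold each time. The sign of r turned with size factors for Gm15723 with Trhde (-0.0884) and Gm37401 with Rhoa (-0.214). Without LH3 and LH4 it turned for Gm42902 with Ephx4 (-0.0792), Gm37401 with Rhoa (-0.246) and RP23-453G12.2 with Dpf2 (0.187). Without LH4 alone it turned for Sp3os with Sp3, Gm42902 with Ephx4, Gm29480 with Gpc1 and RP23-453G12.2 with Dpf2, whose r over all mice left out in turn ran from -0.0351 to 0.786, -0.180 to 0.799, -0.123 to 0.861 and -0.930 to 0.352. The cause was not tested. Of the other values of single transcripts 301 kept their side and 8 came to pass the threshold, and of single pairs 400 and 5. The planned sum with assembled transcripts of the same gene was not run, since the assembled rows carry no gene name.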

Other observations

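A few antisense transcripts passed the adjusted limma threshold only in some alternatives and are not named in the comparisons above; they were named after their values were seen. Without LH3 and LH4, Gm13523 was higher in LH than in Ctrl and in NLH, by 1.55 on the log2 scale in both (limma adjusted p = 0.00292 and 0.00276). The identical differences mean that Ctrl and NLH had the same mean, as at 0 FPKM. There the size of the difference depends on the 0.1 added, and the groups have no spread. Without Ctrl1, Gm12081 was higher in Ctrl than in HC, NLH and LH, by 1.18 over each (limma adjusted p = 0.0338 over HC), so the same limit holds. Without HC3, 1700054M17Rik was lower in Ctrl than in HC, by -1.50 (limma adjusted p = 0.00606). Gm16958 was lower in LH than in NLH by -1.64 without NLH1 (limma adjusted p = 0.0195) and by -4.89 with 0.01 added in place of 0.1 (limma adjusted p = 0.0283). It passed the F test in these settings (adjusted p = 0.0371 and 0.0329) and without NLH2 (adjusted p = 0.0474). 1700025N21Rik was lower in LH than in NLH by -2.18 without NLH1 and by -2.20 without LH2 (limma adjusted p = 0.0433 and 0.0475). AI847159, Gm14218 and Gm12925 passed in 1 setting each.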
